A study of Homo sapiens with 12 samples.

Results

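The 10 genes described here, DUSP4, DUSP5, DUSP6, SPRY1, SPRY2, SPRY4, SPRED1, ETV4, ETV5 and PHLDA1, are known as transcriptional outputs and feedback regulators of the RAS-MAPK pathway. They were chosen by name, and each was matched to 1 human Ensembl identifier through GENCODE 29 symbols. They are 10 of 58243 human identifiers, and all 10 were among the 18628 human genes with enough counts to be tested. RNA was sequenced from 12 xenograft tumours in 4 groups of 3. The cells were MCFDCIS, a human breast line whose tumours are modelled on ductal carcinoma in situ. They were grown subcutaneously in athymic nude mice, which lack T cells but keep other immune cells. In all groups tumours were left for 2 weeks after the cells were injected, before dosing began. The groups were palbociclib for 2 weeks at the stage labelled initial, vehicle for 2 weeks at the initial stage, palbociclib for 2 weeks followed by recovery, and vehicle for 2 weeks followed by recovery. Palbociclib, which blocks the kinases CDK4 and CDK6 that drive entry into S phase, was given daily by oral gavage at 50 mg per kg. The sources used here do not give the length of the recovery period, the age and sex of the mice or what the vehicle was. The labels name 1 cell line, so every tumour shares its genotype, and nothing in them says whether tumours of a group came from separate mice. The MCF10A-derived DCIS line in common use descends from cells transformed with a mutant HRAS, but the labels write MCFDCIS and give no genotype.

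Growth factor receptors load RAS with GTP, RAS activates RAF kinases, RAF phosphorylates MEK, and MEK phosphorylates ERK. ERK then switches on a short list of genes, several of which act back on the pathway. DUSP4, DUSP5 and DUSP6 encode phosphatases that remove the activating phosphates from MAP kinases, with DUSP6 in the cytoplasm and DUSP5 in the nucleus acting mainly on ERK. The Sprouty proteins SPRY1, SPRY2 and SPRY4 and the related SPRED1 restrain signalling between receptors and RAF, and SPRED1 does so by recruiting the RAS GTPase-activating protein neurofibromin. ETV4 and ETV5 are ETS transcription factors of the PEA3 group that carry part of the transcriptional response. PHLDA1 is a pleckstrin homology-like domain protein induced by growth factor signalling.

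RefSeq promoter entries (build GRCh38.p14, 250 bases upstream of the RefSeq start) matched 6 of the 10 members. DUSP4, DUSP5, ETV4 and ETV5 had no entry. The windows of SPRY1 and SPRY2 are shown because SPRY2 was lower without overlap under palbociclib at the initial stage and SPRY1 was not, and neither window lies in an annotated exon. At the recovery stage both genes were lower without overlap under palbociclib. Neither gene passed the test of palbociclib against vehicle, described below, at either stage. They are written 5′ to 3′ on the gene's own strand, at chr4:123396545-123396794 (plus strand) for SPRY1 and at chr13:80341127-80341376 (minus strand) for SPRY2. Capitals mark CCGGAA on either strand, a form of the letters bound by ETS factors such as ETV4 and ETV5. Shorter forms such as GGAA, which the SPRY1 window also holds, were not searched.
SPRY1: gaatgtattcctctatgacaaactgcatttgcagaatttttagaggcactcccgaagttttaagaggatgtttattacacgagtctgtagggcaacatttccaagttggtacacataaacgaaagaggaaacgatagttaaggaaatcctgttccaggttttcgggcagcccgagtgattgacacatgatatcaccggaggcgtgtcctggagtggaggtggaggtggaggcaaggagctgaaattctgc
SPRY2: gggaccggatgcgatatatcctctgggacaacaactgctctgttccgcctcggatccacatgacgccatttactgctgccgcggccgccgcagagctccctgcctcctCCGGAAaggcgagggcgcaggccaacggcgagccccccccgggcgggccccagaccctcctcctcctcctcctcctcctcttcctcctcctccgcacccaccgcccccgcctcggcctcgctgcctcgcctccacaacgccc
The SPRY2 window held 1 match, starting at position -142 from the RefSeq start, and that start lies 175 bases outside the GENCODE 29 gene. The SPRY1 window held no match to CCGGAA. Among the other 4 windows, which overlap annotated exons, PHLDA1 held TTCCGG, the same letters on the other strand, at position -89. DUSP6, SPRED1 and SPRY4 held no match. The RefSeq start of PHLDA1 lies 2156 bases from the start of the GENCODE 29 gene. CCGGAA on either strand occurs in 14.5% of 34796 human RefSeq promoter windows of the same length. The AP-1 letters TGANTCA occur in 6.59% of them, the CRE letters TGACGTCA in 1.64%, the E2F letters TTTNGCGC in 1.49%, the CHR letters TTTGAA in 13.3% and the CArG box in 1.17%, all on either strand, and none of these was found in the 6 member windows. A match only describes letters in the window.

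Counts assigned to genes ranged between 8004903 and 15716211 per library, and mouse genes took 14.2% to 25.4% of them. Human counts alone, between 6613880 and 12352064, set the library sizes of the values below. Levels are CPM, the counts of a gene per 1000000 human counts, scaled between libraries by trimmed mean of M-values. Epithelial markers (KRT5, KRT14, KRT17, KRT8, KRT18, EPCAM, CDH1 and TP63) were expressed in every library, with a summed level of 8225.5 to 8838.7 CPM (palbociclib) and 6959 to 7721 CPM (vehicle) at the initial stage, and 8087 to 11016 CPM (palbociclib) and 8161 to 9027 CPM (vehicle) at the recovery stage. The palbociclib and vehicle ranges of that sum did not overlap at the initial stage, and its part in the results was not tested. Of 16 human copies of host cell markers, 7 were under 1 CPM in every library, HBB was at 0, and the summed level of 196 to 341 CPM came mostly from COL3A1, PECAM1 and KDR. Vehicle recovery library 2 stood apart: it was the highest library for 30.4% of tested genes and the lowest for 32.4%, and its first principal component score was 113.4, against -37.6 to 14.2 in the other 11. Vehicle initial libraries 2 and 3 had 5.32% and 11.2% of human counts on mitochondrial genes. In whole tumours, fewer cells of a type and less RNA per cell cannot be told apart.

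The members lie on 9 chromosomes of GRCh38 in the GENCODE 29 annotation. DUSP4 is at chr8:29333064-29350668, DUSP5 at chr10:110497838-110511544 and DUSP6 at chr12:89347232-89353271. SPRY1 is at chr4:123396795-123403760, SPRY2 at chr13:80335976-80340951 and SPRY4 at chr5:142310427-142326455. SPRED1 is at chr15:38252326-38357249, ETV4 at chr17:43527844-43579620, ETV5 at chr3:186046308-186110318 and PHLDA1 at chr12:76025447-76033932. Exons of DUSP6 and PHLDA1 overlap antisense genes, exons of ETV4 overlap DHX8 on the opposite strand, and exons of ETV5 overlap DGKG on the same strand. The sources used here do not give the strand setting of the counting, so these 4 genes may share reads with their neighbours.

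Per kilobase of merged exon, DUSP6 was the member with the highest level, 89.0 ± 19.2 CPM per kb (SD over 12 libraries). PHLDA1 followed at 61.8 ± 10.7, DUSP4 at 44.3 ± 5.22 and SPRED1 at 30.0 ± 5.62 CPM per kb. DUSP6 was above PHLDA1, and PHLDA1 above DUSP4, in all 12 libraries. SPRY2 (23.3 ± 5.86 CPM per kb), ETV5 (21.2 ± 5.002) and SPRY1 (19.3 ± 3.31) lay within each other's spread. SPRY2 exceeded ETV5 in 8 libraries and ETV5 exceeded SPRY1 in 7. DUSP5 (13.5 ± 3.68 CPM per kb), SPRY4 (11.8 ± 1.94) and ETV4 (10.4 ± 3.43) were lowest, and DUSP5 exceeded SPRY4 in 7 of 12 libraries.

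**Figure D1:**
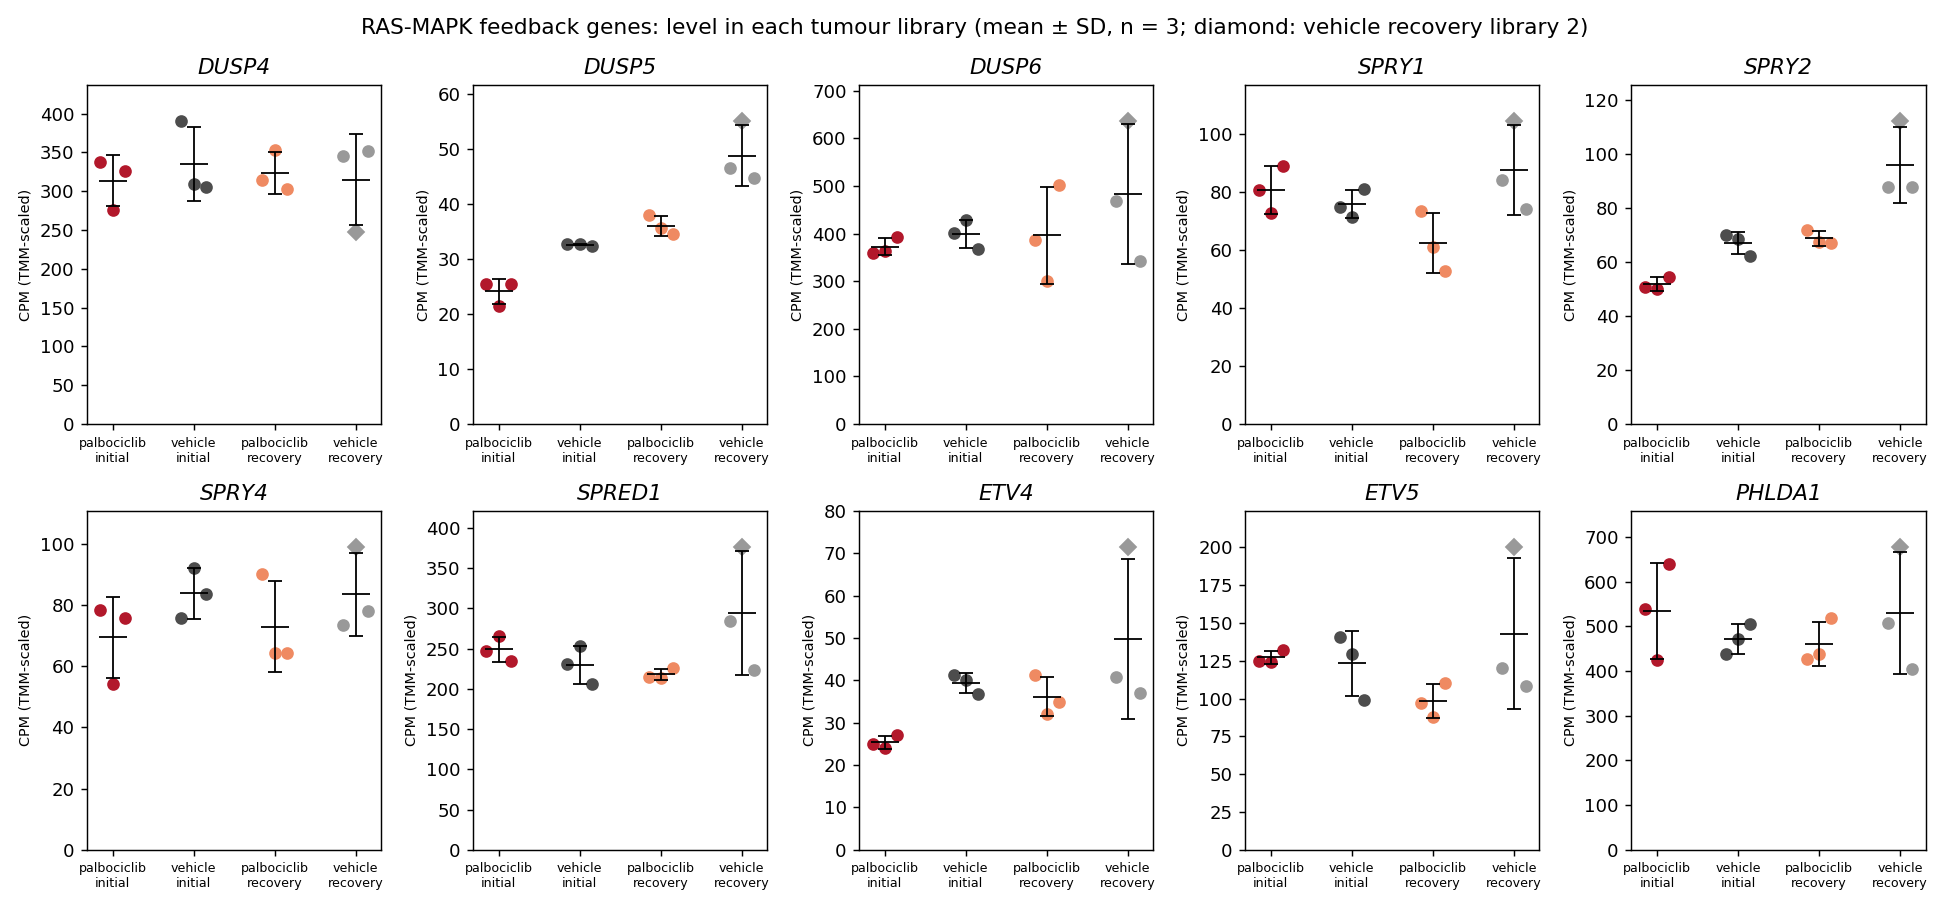
Level of each of the 10 genes in CPM (vertical axes, starting at 0) in every tumour library, by group; bars are the mean ± SD of 3 libraries and the diamond is vehicle recovery library 2. DUSP5, SPRY2 and ETV4 were lower in every palbociclib library than in every vehicle library at the initial stage, and the diamond is the highest point for every gene except DUSP4.

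The first comparison set palbociclib against vehicle at the initial stage and asked how the ERK feedback genes of the tumour cells stood while the drug was given. None of the 10 genes passed the test (edgeR quasi-likelihood, Benjamini-Hochberg adjusted p under 0.05 over all tested genes), where 1.84% of all genes passed in either direction. DUSP5, SPRY2 and ETV4 had lower levels in all 3 palbociclib tumours than in all 3 vehicle tumours. That is 3 of 10 members lower without overlap, where 11.3% of all genes were. The most abundant members, DUSP6, PHLDA1 and DUSP4, had overlapping groups. The same 3 members had an unadjusted p under 0.05, as did 9.86% of all genes.

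Among the phosphatases, DUSP5, the nuclear ERK phosphatase, was at 25.5, 21.5 and 25.4 CPM in palbociclib tumours, against 32.7, 32.6 and 32.4 CPM in vehicle tumours. The vehicle tumours were nearly equal and lay above every palbociclib tumour. The log2 fold change was -0.43 ± 0.12 (SE; adjusted p = 0.104). DUSP6, the cytoplasmic ERK phosphatase, was at 360, 364 and 392 CPM in palbociclib tumours and at 400, 428 and 368 CPM in vehicle tumours. Its groups overlapped, and its log2 fold change of -0.10 ± 0.21 had a 95% interval of -0.54 to 0.34 (adjusted p = 0.949). DUSP4 averaged 314 ± 32.9 CPM under palbociclib and 335 ± 47.7 CPM under vehicle (SD, n = 3 each), also with overlap (log2 fold change -0.10 ± 0.15, adjusted p = 0.924 by edgeR).

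The 3 Sprouty genes had unlike values. SPRY2 was at 50.9, 50.0 and 54.6 CPM in palbociclib tumours, against 70.2, 68.4 and 62.3 CPM in vehicle tumours. Every palbociclib tumour lay below every vehicle tumour, with a log2 fold change of -0.37 ± 0.11 (adjusted p = 0.167). SPRY1 was at 80.7, 72.5 and 89.0 CPM under palbociclib and at 74.9, 71.3 and 81.0 CPM under vehicle, where the groups overlapped (0.09 ± 0.15, adjusted p = 0.924). SPRY4 was at 78.5, 54.1 and 75.6 CPM under palbociclib and at 75.6, 92.1 and 83.7 CPM under vehicle, with overlap (-0.27 ± 0.17, adjusted p = 0.712). SPRED1 averaged 248.8 ± 15.5 CPM under palbociclib and 230 ± 23.8 CPM under vehicle (SD, n = 3 each), with overlapping groups and a log2 fold change of 0.11 ± 0.16.

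The PEA3-group factors also had unlike values. ETV4 was at 24.9, 24.1 and 27.0 CPM in palbociclib tumours, against 41.3, 40.2 and 36.7 CPM in vehicle tumours. The groups were well separated, and the log2 fold change of -0.64 ± 0.20 was the most negative of the 10 (adjusted p = 0.197). ETV5 was at 125, 124 and 132 CPM under palbociclib and at 141, 129 and 99.2 CPM under vehicle, with the palbociclib tumours inside the vehicle range (0.04 ± 0.20, adjusted p = 0.981). PHLDA1 was at 538, 425 and 639 CPM under palbociclib and at 437, 472 and 505 CPM under vehicle, so the palbociclib tumours were the highest and the lowest of the 6 (0.18 ± 0.18, adjusted p = 0.853). The members' median log2 fold change was -0.10, and that of all tested genes was 0.00.

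These calls depended on a library outside the comparison, and the cause was not tested. Without vehicle recovery library 2, ETV4 (-0.64, adjusted p = 0.00189), SPRY2 (-0.37, adjusted p = 0.0208) and DUSP5 (-0.43, adjusted p = 0.0227) passed with nearly the same fold changes. Calls over all genes rose as well in that fit, to 748 of 19343 genes, from 343 of 18628 with all libraries. In a fit of the 6 initial libraries alone, ETV4 (adjusted p = 0.00358) and SPRY2 (adjusted p = 0.0481) passed, among 689 genes in all. Without vehicle initial libraries 2 and 3, the log2 fold changes were -0.70 for ETV4, -0.44 for SPRY2 and -0.44 for DUSP5, with 1 vehicle library left and no call (adjusted p = 0.774 to 0.905).

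**Figure D2:**
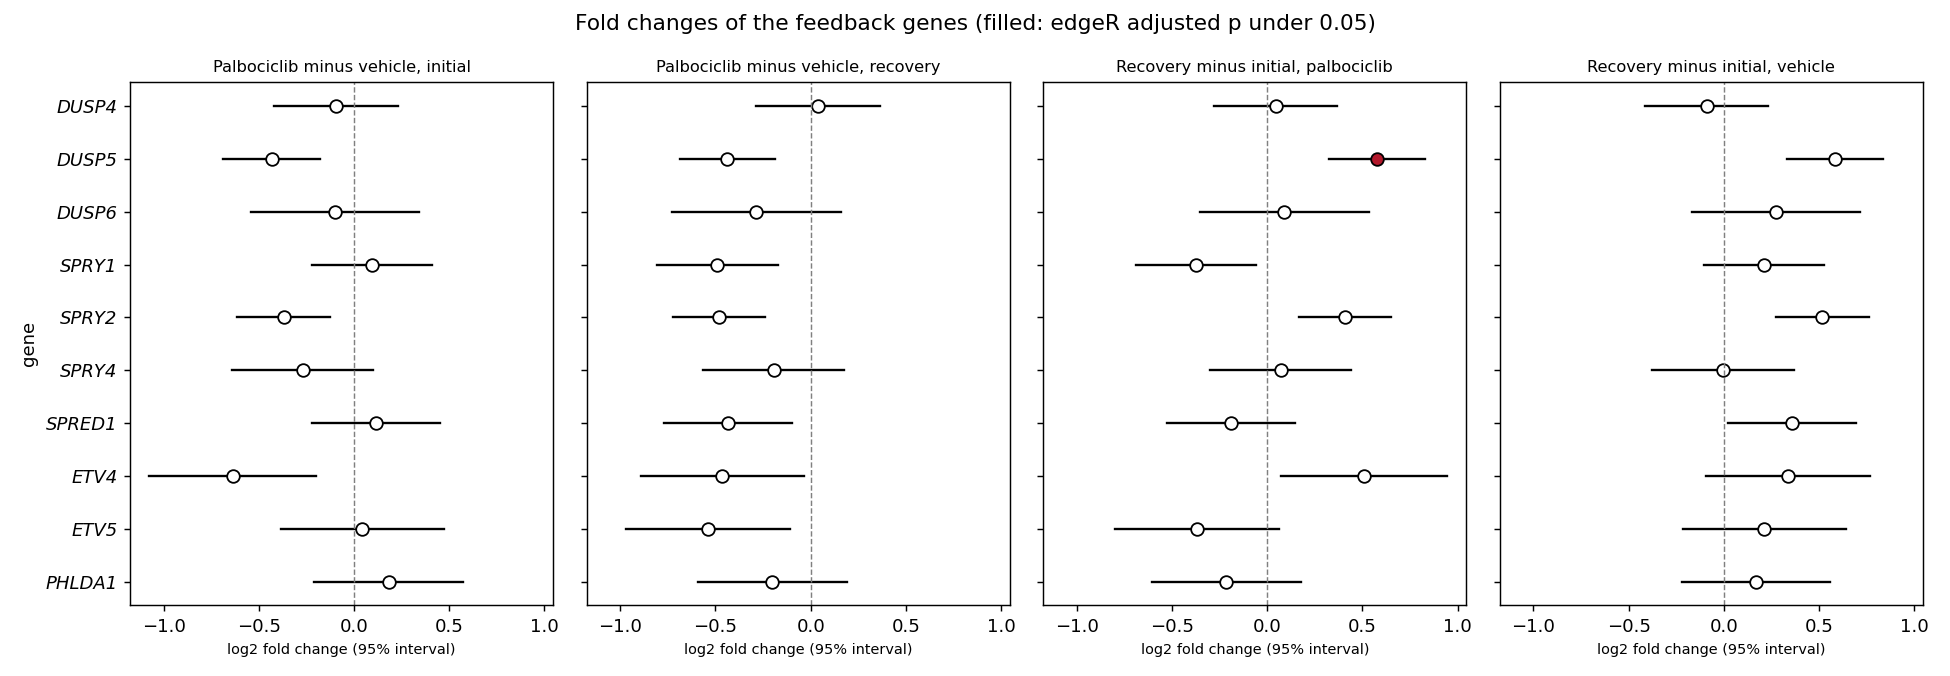
Log2 fold change (horizontal axes) of each gene with its 95% interval in 4 comparisons, from the fit of all 12 libraries; a filled point passed at an adjusted p under 0.05. DUSP5 passed between the palbociclib stages, and no gene shown passed in palbociclib against vehicle at either stage. The intervals are not adjusted for the number of genes tested.

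The comparison of palbociclib with vehicle at the recovery stage asked what remained of the difference after dosing ended. None of the 10 genes passed, and 0.00537% of all genes did, which is 1 gene. DUSP5, SPRY1 and SPRY2 were lower in all 3 palbociclib tumours than in all 3 vehicle tumours, 3 of 10 members where 5.5% of all genes were lower without overlap. Log2 fold changes were negative for 9 of 10 members, as for 50.2% of all genes. Their median was -0.44, against 0.00 for all genes, and it was -0.16 without vehicle recovery library 2.

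DUSP5 was at 38.1, 35.6 and 34.5 CPM in palbociclib tumours, against 46.6, 55.0 and 44.8 CPM in vehicle tumours. All palbociclib tumours lay below the lowest vehicle tumour, with a log2 fold change of -0.44 ± 0.12 (adjusted p = 0.573), and -0.34 without vehicle recovery library 2. SPRY2 was at 72.0, 67.6 and 66.9 CPM in palbociclib tumours, against 87.9, 112 and 87.9 CPM in vehicle tumours. These groups were apart as well (-0.48 ± 0.11, adjusted p = 0.573), with -0.35 when that library was left out. SPRY1 was at 73.3, 61.0 and 52.6 CPM in palbociclib tumours, against 83.9, 104 and 74.2 CPM in vehicle tumours. The highest palbociclib tumour was just below the lowest vehicle tumour (-0.49 ± 0.15, adjusted p = 0.573, and -0.34 without that library).

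The other members had overlapping groups. The values of ETV4, ETV5, SPRED1, DUSP6 and PHLDA1 rested more on vehicle recovery library 2, while DUSP4 and SPRY4 moved about as much as SPRY1 without it. ETV4 was at 41.2, 32.1 and 34.98 CPM in palbociclib tumours, against 40.8, 71.5 and 36.9 CPM in vehicle tumours. Its log2 fold change was -0.46 ± 0.20 with all libraries and -0.11 without that library. ETV5 was at 97.1, 87.9 and 110 CPM in palbociclib tumours, against 120, 200.2 and 108 CPM in vehicle tumours. Its log2 fold change was -0.54 ± 0.20, the most negative of the 10, and -0.22 without that library. SPRED1 was at 214, 213.5 and 226 CPM in palbociclib tumours, against 284, 376 and 224 CPM in vehicle tumours. It overlapped by 1 vehicle tumour and had a log2 fold change of -0.43 ± 0.16, or -0.22 without that library.

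DUSP6 was at 387, 299.6 and 502 CPM in palbociclib tumours, against 469, 636 and 343 CPM in vehicle tumours, the widest spread of the phosphatases. Its log2 fold change was -0.28 ± 0.21, and -0.03 without vehicle recovery library 2. DUSP4 averaged 323 ± 26.5 CPM under palbociclib and 315 ± 58.3 CPM under vehicle (0.04 ± 0.15, and -0.11 without that library). SPRY4 averaged 72.9 ± 14.97 CPM under palbociclib and 83.4 ± 13.6 CPM under vehicle (-0.19 ± 0.17, and -0.05 without it). PHLDA1 averaged 461 ± 49.7 CPM under palbociclib and 530 ± 138 CPM under vehicle (SD, n = 3 each), with a log2 fold change of -0.20 ± 0.18, and 0.02 without it.

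**Figure D3:**
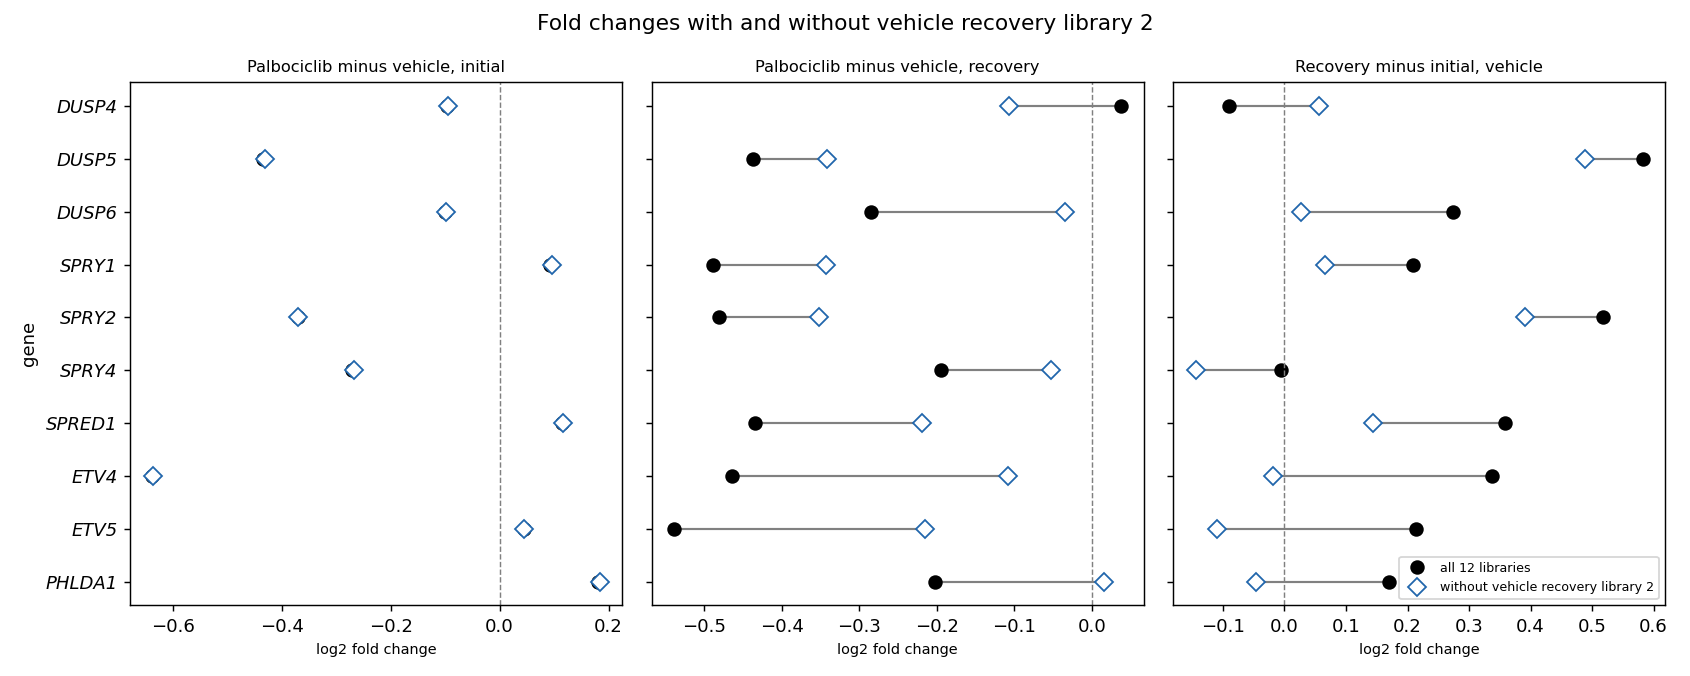
Log2 fold changes of the 10 genes (horizontal axes) from all 12 libraries (filled points) and without vehicle recovery library 2 (open diamonds) in 3 comparisons. Leaving it out barely moved the initial-stage values, and brought the recovery-stage values of palbociclib against vehicle nearer to 0 for every gene except DUSP4.

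Whether the palbociclib effect differed between the stages was tested directly as the recovery effect minus the initial effect. None of the 10 genes passed, and 0.22% of all genes did, all of them with a positive difference. The most negative differences were those of ETV5 (-0.58 ± 0.28, adjusted p = 0.947), SPRY1 (-0.58 ± 0.21, adjusted p = 0.728) and SPRED1 (-0.55 ± 0.22, adjusted p = 0.884). DUSP5 had a difference of 0.00 ± 0.17 (95% interval -0.37 to 0.36) and SPRY2 of -0.11 ± 0.16 (95% interval -0.45 to 0.23). ETV4 had 0.17 ± 0.29, and the members' median was -0.15, or 0.00 without vehicle recovery library 2.

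Tumours that had received palbociclib were then compared between the recovery and the initial stage. DUSP5 rose in recovery tumours and was the 1 member of 10 to pass, with a log2 fold change of 0.58 ± 0.12 (adjusted p = 0.016 by edgeR), where 2.36% of all genes passed as higher. Its level was 36.0 ± 1.84 CPM at recovery, against 24.1 ± 2.28 CPM at the initial stage (SD, n = 3 each). DUSP5, SPRY2 and ETV4 were higher without overlap, 3 of 10 members where 14.9% of all genes were. SPRED1 and ETV5 were lower without overlap, where 14.2% of all genes were.

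SPRY2 averaged 68.8 ± 2.77 CPM at recovery and 51.9 ± 2.45 CPM at the initial stage (SD, n = 3 each; log2 fold change 0.41 ± 0.11, adjusted p = 0.0809 by edgeR). ETV4 averaged 36.1 ± 4.61 CPM at recovery and 25.3 ± 1.52 CPM at the initial stage (0.51 ± 0.20, adjusted p = 0.259 by edgeR). ETV5 averaged 98.4 ± 11.1 CPM at recovery and 127 ± 4.43 CPM at the initial stage, a value of the opposite sign to ETV4 (-0.37 ± 0.20). SPRY1 averaged 62.3 ± 10.4 CPM at recovery and 80.7 ± 8.24 CPM at the initial stage, with 1 recovery tumour inside the initial range (-0.37 ± 0.15). SPRED1 averaged 218 ± 7.18 CPM at recovery and 248.8 ± 15.5 CPM at the initial stage (-0.19 ± 0.16). DUSP4, DUSP6, SPRY4 and PHLDA1 had overlapping groups, with log2 fold changes of 0.04, 0.09, 0.07 and -0.21. The members' median was 0.06.

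The DUSP5 call was lost when 1 of palbociclib initial libraries 1, 2 and 3 or of palbociclib recovery libraries 1 and 2 was left out, with adjusted p between 0.0561 and 0.0928 and log2 fold changes between 0.50 and 0.62. Without vehicle recovery library 2, SPRY2 (adjusted p = 0.00637) and ETV4 (adjusted p = 0.00753) passed as well. Over all genes 1425 of 19343 passed in that fit, against 439 higher and 87 lower of 18628 with all libraries. In a fit of the 6 palbociclib libraries alone, SPRY2 (adjusted p = 0.00774), ETV4 (adjusted p = 0.0145) and ETV5 (adjusted p = 0.0247) passed beside DUSP5, among 1617 genes in all. This comparison shares the palbociclib initial tumours with the first one.

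Vehicle tumours were compared in the same way, as the change over this time without the drug. None of the 10 members passed in edgeR, and 0% of all genes did, although 14.4% of all genes had an unadjusted p under 0.05 and DESeq2 called 84 genes. DUSP5 averaged 48.8 ± 5.48 CPM at recovery and 32.6 ± 0.133 CPM at the initial stage (SD, n = 3 each). Its recovery tumours all lay above the initial tumours, with a log2 fold change of 0.58 ± 0.12, the same size as in palbociclib tumours (adjusted p = 0.21 by edgeR and 0.00888 by DESeq2). SPRY2 averaged 96.01 ± 13.97 CPM at recovery and 67.0 ± 4.13 CPM at the initial stage, also without overlap (0.52 ± 0.11, adjusted p = 0.231 by edgeR and 0.0236 by DESeq2). These were 2 of 10 members higher without overlap, where 6.71% of all genes were. Without vehicle recovery library 2 the log2 fold changes were 0.49 for DUSP5, 0.39 for SPRY2, -0.02 for ETV4 and -0.11 for ETV5, against 0.58, 0.52, 0.34 and 0.21 with it. SPRED1 had 0.36 ± 0.16, DUSP6 had 0.27 ± 0.21, and the other members lay between -0.09 and 0.21.

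**Figure D4:**
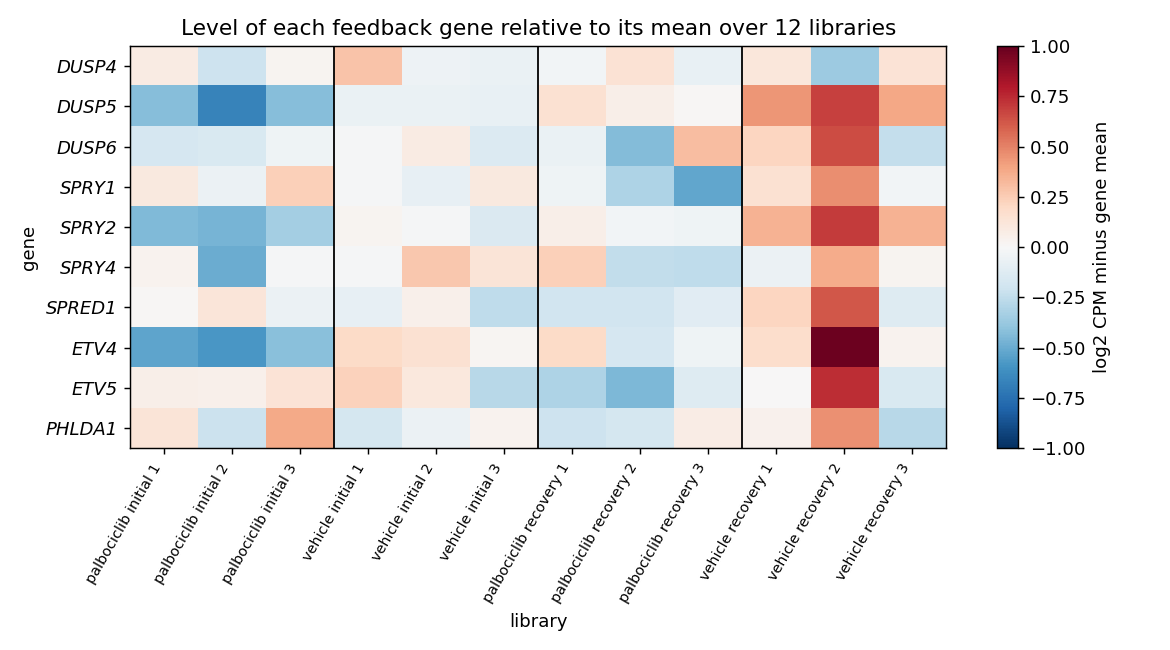
Log2 CPM of each gene minus its mean over 12 libraries (colour scale from -1 to 1), with libraries in columns by group. DUSP5 and SPRY2 share a pattern of low palbociclib initial and high vehicle recovery libraries, and vehicle recovery library 2 is the highest for 9 of 10 genes.

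Across libraries, the mean of the members' centred log2 CPM was 0.53 in vehicle recovery library 2 and lay between -0.27 and 0.16 in the other 11. That library was the highest for 9 members and the lowest for DUSP4, and palbociclib initial library 2 was the lowest for 4. Likeness of pattern was measured as the root mean square difference of centred log2 CPM over the 12 libraries, among 14359 genes. The genes nearest to DUSP6 were KAT2B (0.0867), GPX8 (0.0984), CKAP4 (0.103), ARSB (0.105) and BLVRA (0.105), where the median gene was at 0.343. The nearest other member to DUSP6 was SPRED1, at 0.180, which is the smallest of 9 values and not of 14359. The SD of DUSP6 itself over the libraries was 0.273 on this scale. The genes nearest to the mean of the 10 members were ZNHIT2 (0.0677), SUSD6 (0.0680), SCRN1 (0.0778), EPN1 (0.0784) and CSNK2A1 (0.0790).

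Other genes of the pathway were followed in lists by role. The list of RAS GTPase-activating proteins also holds the member SPRED1, which recruits such a protein. Tested were 20 RAS genes and exchange factors, 9 genes of the GTPase-activating protein list and 22 RAF, MEK, ERK and scaffold genes. None of them passed between palbociclib and vehicle at the initial stage. The log2 fold changes there were -0.12 for HRAS, -0.14 for NRAS, 0.04 for BRAF, -0.34 for MAP2K1, 0.00 for MAP2K2 and -0.22 for MAPK3. MAP2K1, which encodes MEK1, rose in palbociclib recovery tumours relative to palbociclib initial tumours (0.64 ± 0.11, adjusted p = 0.00523). It was the 1 of these 51 genes to pass in that comparison, where 2.36% of all genes passed as higher. MAP2K1 was at 47.1, 48.8 and 46.5 CPM in the recovery tumours and at 30.7, 27.3 and 33.0 CPM in the initial tumours, with no overlap. Between the vehicle stages MAP2K1 was at 47.5, 56.7 and 48.4 CPM at recovery and at 37.9, 38.4 and 39.4 CPM at the initial stage, also without overlap (0.40 ± 0.11, adjusted p = 0.291).

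Of 12 tested relatives of the members, DUSP10, a phosphatase that acts mainly on JNK and p38, fell under palbociclib at the initial stage (-1.26 ± 0.18, adjusted p = 0.00123). It was at 8.91, 8.68 and 10.6 CPM in palbociclib tumours, against 18.0, 30.0 and 19.9 CPM in vehicle tumours. Between the palbociclib stages DUSP10 rose at recovery (1.51 ± 0.17, adjusted p = 0.000301). Between the vehicle stages it had a log2 fold change of 0.88 ± 0.17 (adjusted p = 0.21), with 42.9, 41.6 and 40.3 CPM at recovery, all above the initial tumours. At recovery DUSP10 was at 25.9, 27.3 and 27.0 CPM in palbociclib tumours, below every vehicle tumour (-0.64 ± 0.16, adjusted p = 0.573). The other 11 relatives, among them DUSP1, SPRED2 and ETV1, did not pass in these comparisons.

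Of 24 other ERK-induced genes, FOS, an AP-1 subunit, fell under palbociclib at the initial stage (-1.18 ± 0.15, adjusted p = 0.000463) and CCND1, which encodes cyclin D1, rose (0.79 ± 0.12, adjusted p = 0.002). FOS was at 31.4, 32.5 and 31.7 CPM in palbociclib tumours, against 64.9, 87.6 and 63.9 CPM in vehicle tumours. CCND1 was at 293, 345 and 365 CPM in palbociclib tumours, against 183, 204 and 193 CPM in vehicle tumours. So 2 genes of the same list had opposite directions, and the median of the 24 was -0.33, against 0.00 for all genes. At recovery against the initial stage in palbociclib tumours, FOS (1.43 ± 0.15), LIF (1.45 ± 0.23), IL11 (1.59 ± 0.39) and PLAUR (0.51 ± 0.12) rose and CCND1 fell (-0.54 ± 0.12). None of these 5 passed between the vehicle stages, where the values were 0.30 ± 0.14 for FOS, 0.71 ± 0.23 for LIF, 1.19 ± 0.36 for IL11, 0.32 ± 0.12 for PLAUR and 0.28 ± 0.12 for CCND1. The FOS and LIF calls held in all 17 alternative settings. The PLAUR (0.42 to 0.59) and IL11 (1.44 to 1.72) calls were lost when any 1 palbociclib library was left out. Both were also lost with a covariate for the mouse share or for the fourth row that names no gene. PLAUR was lost with library totals and with upper quartile scaling too. The CCND1 call (-0.63 to -0.47) was lost without palbociclib initial library 2 or 3 or palbociclib recovery library 1 or 2.

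Upstream, among 15 EGF family ligands and receptors, the EGFR ligands HBEGF (-1.68 ± 0.23, adjusted p = 0.00127) and EREG (-1.64 ± 0.33, adjusted p = 0.0286) fell under palbociclib at the initial stage. HBEGF was at 12.02, 11.1 and 12.4 CPM in palbociclib tumours, against 23.9, 53.0 and 37.6 CPM in vehicle tumours. The 2 higher vehicle values were those of vehicle initial libraries 2 and 3. Over 19 alternative settings the HBEGF log2 fold change lay between -1.94 and -1.02. The EREG call was lost in 9 of 19 alternative settings (-1.83 to -1.15), among them those without palbociclib initial library 1, 2 or 3 or vehicle initial library 2 or 3. Between the palbociclib stages the ligands AREG (2.03 ± 0.40), EREG (1.94 ± 0.34) and HBEGF (1.23 ± 0.23) rose at recovery. ERRFI1, a feedback inhibitor of EGFR (0.46 ± 0.10), rose there too, while the ERBB3 ligand NRG1 fell (-1.91 ± 0.26). Between the vehicle stages none of these 5 passed, with values of 0.94 ± 0.39 for AREG, 0.89 ± 0.32 for EREG, 0.21 ± 0.22 for HBEGF, 0.15 ± 0.10 for ERRFI1 and -1.27 ± 0.26 for NRG1. NRG1 was at 16.6, 22.4 and 12.4 CPM in vehicle recovery tumours and at 44.6, 43.8 and 35.8 CPM in vehicle initial tumours, without overlap. In the direct test of the difference of effects, FOS was the 1 gene of the pathway lists to pass, where 0.22% of all genes passed. The ERRFI1 call (0.39 to 0.50) was lost when any 1 palbociclib library was left out, with library totals and with no low-count filter. The AREG call (1.58 to 2.31) was lost without palbociclib initial library 1, 2 or 3 or palbociclib recovery library 3. It was also lost in the fit of the groups compared. Leaving out palbociclib initial library 1 also ended the EREG and HBEGF calls, as leaving out palbociclib recovery library 1 did for HBEGF. None of 10 tested genes of the list of FGF receptors, FGF ligands, MET and HGF passed in either comparison. None of these pathway lists held a gene that passed between palbociclib and vehicle at recovery. As a reference for the drug, the proliferation marker MKI67 fell under palbociclib at the initial stage (-2.42 ± 0.23), at 37.7, 56.2 and 28.9 CPM in palbociclib tumours, against 185, 272 and 200.4 CPM in vehicle tumours.

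**Figure D5:**
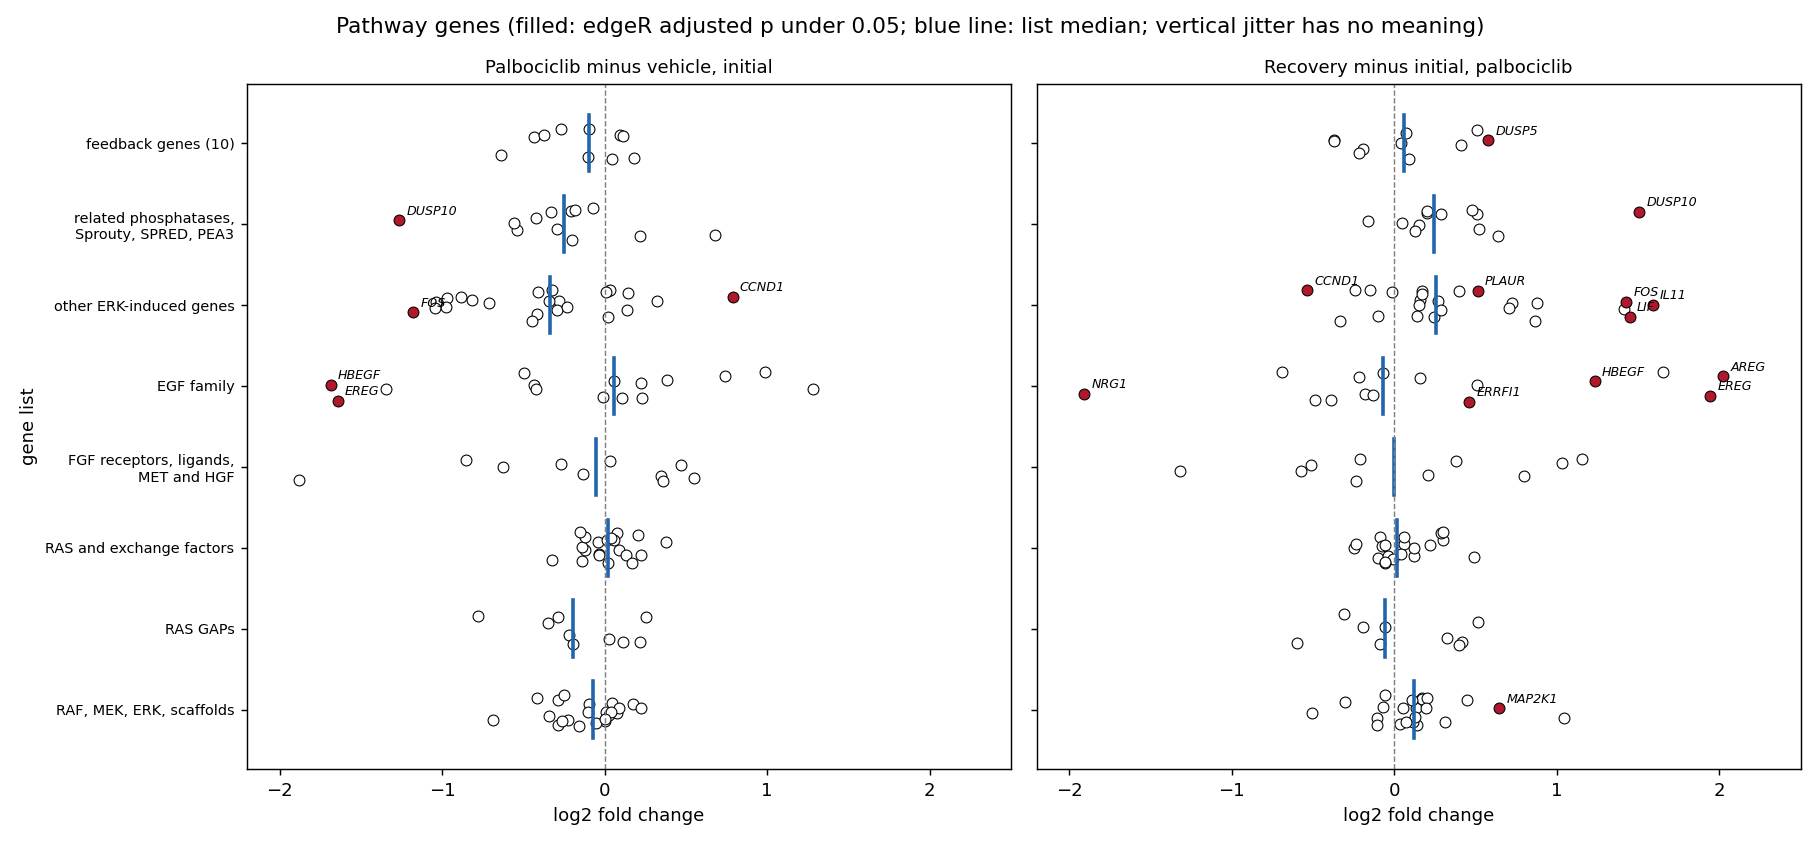
Log2 fold changes (horizontal axes) of the 10 feedback genes and of 7 lists of pathway genes, 1 point per gene, for palbociclib against vehicle at the initial stage (left) and for recovery against the initial stage in palbociclib tumours (right); filled and named points passed at an adjusted p under 0.05 and blue lines are list medians. DUSP10, FOS, HBEGF and EREG fell on the left and rose on the right, and both panels share the palbociclib initial tumours. The feedback genes lay between -0.64 and 0.58 in both panels. Of these, DUSP5, SPRY2 and ETV4 were lower without overlap on the left and higher without overlap on the right. The list of RAS GTPase-activating proteins also holds the member SPRED1.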

How the data were processed

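The deposited files hold raw counts per Ensembl gene, human and mouse, 1 file per tumour. Per the labels' protocols homogenised tumours went through RNeasy extraction and TruSeq library preparation. CASAVA 1.8, cutadapt, STAR, edgeR and the builds GRCh38 and GRCm38 appear in the submitters' processing notes. The sources used here do not give the counting program, annotation release or handling of reads that fit both genomes. The 4 rows that name no gene held 37.0% to 69.1% of counts and were left out, and 713 repeated rows were removed. Symbols came from GENCODE 29 (57980 of 58243 human identifiers).

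Human counts were fitted with edgeR 4.0.16 in R 4.3.3 (filterByExpr, minimum count 10 and total 15; TMM; robust glmQLFit; glmQLFTest) as 4 group means over all 12 libraries, with a biological coefficient of variation of 0.18. Benjamini-Hochberg adjustment ran over 18628 genes, and genes under 0.05 passed. Standard errors are the size of the log2 fold change over the root of F. With 3 tumours per group, p-values rest on the spread among these tumours only. Replicate pairs differed by more than counting noise (chi-square per degree of freedom 4.55 to 63.2), so none was treated as a repeat deposit of another; this does not show that tumours came from separate mice.

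The members and lists were chosen with earlier results of these data known. All members are named; from other lists, up to 4 genes per comparison that passed, by smallest p, plus core RAS, RAF, MEK and ERK isoforms, some of which are not reported here. Alternatives were other scalings (DESeq2's RLE size factors, library totals, upper quartile), filters, covariates, DESeq2 1.42.0, fits of the groups compared, and libraries left out.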

Additional observations from a re-analysis of the deposited data

Results flagged for a closer look

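The palbociclib effect on FOS and MKI67 differed between the stages in the direct test of that difference, while no feedback gene passed it. For FOS, the effect at recovery minus the effect at the initial stage was 1.13 on the log2 scale (adjusted p = 0.0372 by edgeR), and it lay between 0.96 and 1.27 and passed in 9 of 23 alternative settings. The call was lost when any 1 library other than vehicle recovery library 2 was left out. FOS was at 87.4, 79.1 and 90.9 CPM in palbociclib and at 79.6, 106 and 81.3 CPM in vehicle recovery tumours, where the groups overlapped, unlike at the initial stage. For MKI67 the difference was 2.14 (adjusted p = 0.0118 by edgeR), and it passed in 19 of 23 settings (1.89 to 2.43). The MKI67 call was lost without palbociclib initial library 1 and with the covariate for the fourth row that names no gene. It was also lost in the fits that left out vehicle initial libraries 2 and 3 together.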

How the results depend on the processing

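Each log2 fold change of each member was recomputed under every alternative. In the comparison of palbociclib with vehicle at the initial stage, 184 of 190 member values kept their sign, against 165 of 170 at recovery, 207 of 230 for the difference of effects, 164 of 170 for recovery against initial in palbociclib tumours and 162 of 180 in vehicle tumours. The median of all genes stayed within 0.1 of 0 under every scaling.

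The count of members passing at the initial stage was 0 with all libraries, 1 (ETV4) with no low-count filter, 2 in the fit of the groups compared, 1 (ETV4) without vehicle initial libraries 2 and 3 and vehicle recovery library 2 together, and 0 to 3 when single libraries were left out. At recovery it was 1 (ETV5, adjusted p = 0.0269) with no filter. Between the palbociclib stages it was 1, 4 in the fit of the groups compared, and 0 to 3 when single libraries were left out. Between the vehicle stages it was 2 (DUSP5 and SPRY2) with no filter and 2 with DESeq2. The causes were not tested. Over all genes, 343 passed at the initial stage, 753 with no filter, 689 in the fit of the groups compared, 524 with DESeq2, 221 with a covariate for the share of counts in the fourth row that names no gene, 147 with the mouse share as covariate and 95 without vehicle initial libraries 2 and 3. At recovery 1 passed, 794 with no filter and 20 with DESeq2, and between the vehicle stages 0, 1124 and 84. The difference of effects held 41 genes, 320 with no filter and 104 with DESeq2, and between the palbociclib stages 439 passed as higher and 87 as lower, with 1147 in all without a filter, 822 with DESeq2 and 1617 in the fit of the groups compared. With single libraries left out the counts ran from 159 to 748 at the initial stage, with the highest count without vehicle recovery library 2, and likewise from 12 to 161 for the difference of effects and from 205 to 1425 between the palbociclib stages.

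Signs that turned were mostly of values near 0. At the initial stage, SPRED1 was -0.088 and ETV5 -0.22 with the covariate for the fourth row that names no gene, an alternative chosen after seeing the data. ETV5 was -0.15 without vehicle initial libraries 2 and 3, with or without vehicle recovery library 2, a combination also chosen after seeing the data. At recovery, DUSP4 was -0.10 and PHLDA1 0.018 without those 3 libraries. The difference of effects for DUSP5 was 0.024 with library totals, 0.026 with upper quartile scaling, 0.00041 with mitochondrial genes left out, 0.0040 with the stricter filter, 0.047 with the unnamed-row covariate and 0.10 without the 3 libraries. For SPRY2 it was 0.011 with that covariate and 0.092 without the 3 libraries, for DUSP6 it was 0.078 without the 3 libraries, and for SPRY4 -0.076 without vehicle initial libraries 2 and 3. DUSP4 between the palbociclib stages was -0.024 with upper quartile scaling. Between the vehicle stages, SPRY4 was 0.020 with RLE size factors, 0.025 with no filter, 0.0093 with the covariate, 0.15 without vehicle initial libraries 2 and 3, 0.0031 without the 3 libraries and 0.020 with DESeq2. ETV5 was -0.039 with the covariate and -0.30 without the 3 libraries, and ETV4 was -0.082 without them.

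With single libraries left out, the sign turned within these ranges. At the initial stage DUSP4 lay between -0.15 and 0.031 and ETV5 between -0.084 and 0.16. At recovery DUSP4 lay between -0.11 and 0.12 and PHLDA1 between -0.37 and 0.015. For the difference of effects DUSP4 lay between -0.013 and 0.21, DUSP5 between -0.085 and 0.090, DUSP6 between -0.40 and 0.065, ETV4 between -0.014 and 0.53, SPRY2 between -0.18 and 0.017, and SPRY4 between -0.11 and 0.21. Between the palbociclib stages DUSP4 lay between -0.040 and 0.10, DUSP6 between -0.12 and 0.26 and SPRY4 between -0.11 and 0.17. Between the vehicle stages DUSP4 lay between -0.16 and 0.057, ETV4 between -0.019 and 0.53, ETV5 between -0.11 and 0.40, PHLDA1 between -0.046 and 0.35, and SPRY4 between -0.14 and 0.085.

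No paired analysis was possible because the labels give no replicate number shared across groups. With 3 libraries per group and 6613880 or more human counts each, members with a standard error near 0.20 (DUSP6, ETV4 and ETV5) had 95% intervals reaching more than 0.4 to each side with all 12 libraries.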

Other observations

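DUSP5 and SPRY2 were each other's nearest member in pattern over the 12 libraries, with a root mean square difference of 0.0889 in centred log2 CPM. This pair was chosen after its values were seen. The nearest gene outside the members was MMD for DUSP5, at 0.123, and DDX41 for SPRY2, at 0.0785. The points share libraries, so this is a description.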
